A study of Tegula funebralis with 16 samples.

Results

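The contigs described here are those that the deposited table names as caspases, apoptosis proteins, BCL2 relatives, baculoviral repeat inhibitors, death domain proteins or members of the tumor necrosis factor (TNF) and TRAF system, in the intertidal snail Chlorostoma (Tegula) funebralis. A contig is an assembled transcript or a piece of one. Names were searched for caspase, apopto, bcl, baculoviral, death domain, programmed cell death, tumor necrosis factor and traf, names holding c1q or traffick were left out, and 6 contigs named as inhibitors of apoptosis, apoptosis regulators (BAX-like and r1-like) or fas ligand were set aside by identifier. Of 15903 contigs in the table, 117 matched, 15 fell to c1q or traffick and 5 of the 6 set aside were among the matches, which left 97. A mean of at least 10 normalised reads over all libraries was required, and 95 contigs passed, of 14444 that passed in the whole table. The 2 that missed it were a TNF alpha contig with a mean of 3.42 and an inhibitor of apoptosis with 6.79, while the lowest inside were an inhibitor of apoptosis 1 contig (SR_contig_64086) at 11.3 and a caspase 8 contig (SR_contig_10143_C3.1) at 14.4. By their names alone, 83 of the 95 were placed in the death pathway. Some of these are named for proteins with other roles, among them the LITAF-like contig and SR_contig_8130 below. The other 12 match only by letters: 9 intraflagellar transport proteins, whose name happens to hold traf, a GET4 homolog described by traffic, a BCL9 homolog and a BCL6 corepressor.

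RNA was extracted from whole individual snails of 4 California sites, Aliso Beach and La Jolla in the south and Slide Ranch and Pigeon Point in the north. Heat-stressed animals were held for 5.5 hours in air that began at 15 °C, gained 3 °C at each step and ended at 34 °C, and control animals for 5.5 hours in air kept at 15 °C. Each site gave 2 heat and 2 control libraries, 16 in all, so each region held 4 of each treatment. Strain, sex and age of the animals, and the number of animals per library, were not given in the sources used here, and the p-values speak only of how these libraries vary.

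Programmed cell death in animals is run by caspases, proteases that lie dormant until cut: initiator caspases such as caspase 8 and 9 are switched on in receptor or mitochondrial complexes and cut effector caspases such as caspase 3 and 7, which dismantle the cell. TNF family ligands bind receptors that recruit death domain and TRAF adaptor proteins, BCL2 family proteins control the outer membrane of mitochondria, and inhibitors of apoptosis (IAPs), which carry baculoviral repeats, bind caspases or mark signalling proteins with ubiquitin. Oysters, which are molluscs like this snail, have an enlarged IAP family. The roles given to contigs below are those known for the named proteins, mainly from mammals and insects. No sequence of these contigs was available to print.

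Reads per library ran from 17594009 to 26103215. In Pigeon Point and La Jolla, the first heat library and the first control library stood apart: contig SR_contig_83 took 17.3%, 39.2%, 16.6% and 17.1% of their reads in Pigeon Point heat, La Jolla heat, Pigeon Point control and La Jolla control, against 1.58% to 6.80% in the other 12. With a term for these 4 libraries, added after the data were seen, 45 of the 95 members (47.4%) differed between them and the rest, against 55.8% of all contigs tested. The main counts below are therefore given for the 12 other libraries too. In that set Pigeon Point and La Jolla keep no replicate pair in either treatment. The spread behind its p-values therefore comes only from Slide Ranch and Aliso Beach. The members' mean level had a median of 194 normalised reads, against 205 for all contigs tested, and their median coefficient of variation among controls was 25.1%, against 28.5%. Levels are not compared between contigs, since contig lengths were not available.

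Averaged over the 4 sites, 14 of the 95 contigs changed under heat, 7 higher and 7 lower (14.7%), while 4.24% of all contigs tested changed (limma, adjusted p under 0.05; changes were fitted on log2(value + 1)), 2.08% higher and 2.16% lower. IAPs stood on both sides, TNF ligands and effector caspases only on the lower side and a TNF receptor contig on the higher side. Without the 12 matches by letters alone, 13 of 83 changed, 6 higher and 7 lower. edgeR's quasi-likelihood test on the reads called 14 members (4.33% of all contigs) and DESeq2 16 (9.09%). In the 12 libraries, 21 of the 95 changed (22.1%), 10 higher and 11 lower, against 18.8% of all contigs, and with a term for the 4 libraries that stand apart 24 changed (25.3%), against 24.4% of all contigs. Both shares are near their background. Of the 14, 13 were called there with the same sign. Heat and control libraries did not overlap at all for 9 contigs, 5 wholly above and 4 wholly below controls, while 2.19% of all contigs did not overlap. The median log2 fold change of the 95 was -0.04, against 0.00 over all contigs. The same sign at all 4 sites was seen for 42 of 95 members (44.2%), against 38.9% of all contigs tested. In what follows, levels are normalised reads, the error after a mean is the SD over 8 libraries, and the error after a log2 fold change is its SE. In whole animals, fewer cells of a type and less RNA per cell cannot be told apart.

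**Figure D1:**
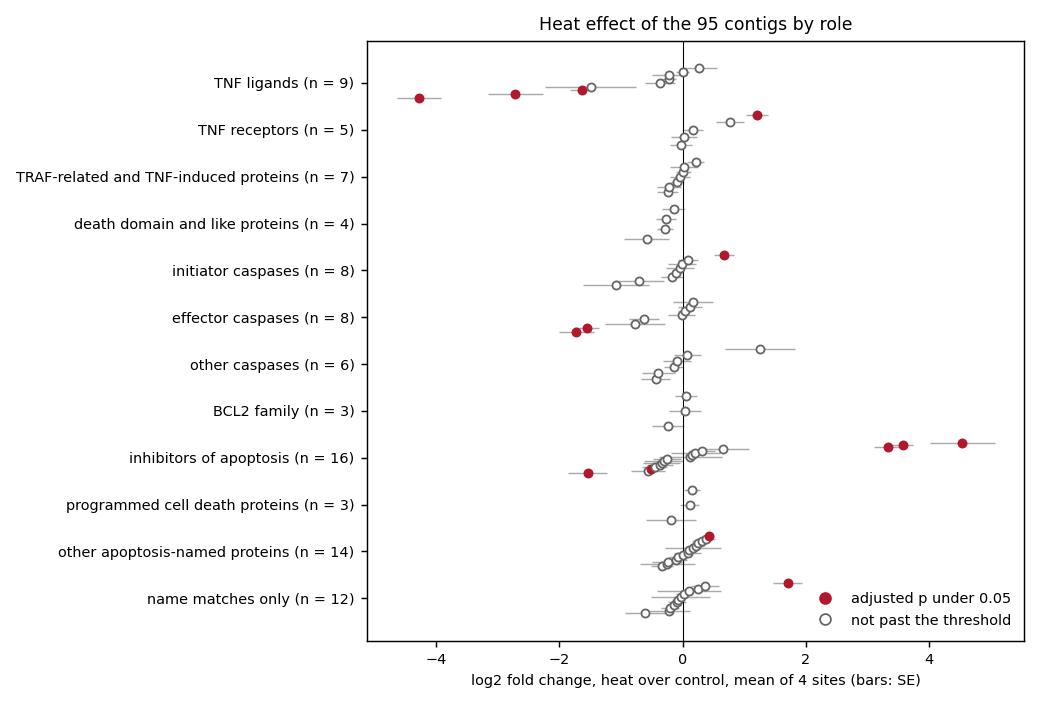
Log2 fold change under heat over control, averaged over 4 sites (x axis, log2 scale; bars are SE), for each of the 95 contigs, grouped by role down the page; filled red points passed adjusted p under 0.05. Inhibitors of apoptosis span -1.54 to 4.54 and TNF ligands -4.28 to 0.26, while the 3 BCL2 family contigs lie between -0.24 and 0.05.

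Among TNF ligands, which trigger death or survival signals from outside the cell, 3 of 9 fell and none rose; 7 of 9 had negative values. TNF alpha contig SR_contig_63565 had 2.27 and 0 at Aliso Beach, 0 and 2.33 at La Jolla, 2.66 and 1.95 at Slide Ranch, and 23.9 and 11.1 at Pigeon Point in heat libraries, against 57.1 and 40.4 at Aliso Beach, 96.7 and 111 at La Jolla, 77.5 and 77.5 at Slide Ranch, and 79.9 and 53.9 at Pigeon Point in control libraries. Every heat library lay below every control library, and the highest heat values were both from Pigeon Point. The means were 5.52 ± 8.20 in heat and 74.3 ± 23.2 in control libraries, log2 fold change -4.28 ± 0.35 (SE), adjusted p = 1.41e-05. With 2 heat libraries at 0, the size depends on the pseudocount and on 1 site: the log2 fold change was -3.13 with a pseudocount of 5 and -5.06 without Pigeon Point. The TNFSF10-like contig SR_contig_4041, named for the death ligand TRAIL, had 182 to 499.8 (median 301) in heat libraries and 691 to 1349.5 (median 955) in control libraries, again without overlap, log2 fold change -1.63 ± 0.19 (SE), adjusted p = 0.000282. A second TNF alpha contig, SR_contig_697_C3.1, had 1.51 and 2.19 at Aliso Beach, 0 and 4.67 at La Jolla, 4.43 and 8.77 at Slide Ranch, and 5.51 and 11.1 at Pigeon Point in heat libraries, against 10.4 and 8.42 at Aliso Beach, 14.3 and 50.2 at La Jolla, 32.2 and 66.4 at Slide Ranch, and 39.2 and 86.0 at Pigeon Point in control libraries, log2 fold change -2.72 ± 0.44 (SE), adjusted p = 0.00375. Slide Ranch heat 2 and Pigeon Point heat 2 reached the level of the Aliso Beach controls, the lowest of their group, and only 414 reads in all stand behind it, with 0 to 126 in a library.

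None of the other 6 ligand contigs passed over 16 libraries, some of them with the same names as those that fell. Another TNF alpha contig (SR_contig_14755) averaged 17.7 ± 25.7 normalised reads in heat and 46.3 ± 25.5 in control libraries, with a log2 fold change of -1.49 ± 0.73 and adjusted p = 0.311 over 16 libraries, and -2.05 with 0.00733 over 12. TNFSF10 contig SR_contig_18687 averaged 901 ± 159 in heat and 894 ± 121 in control libraries, a log2 fold change of 0.00 ± 0.10. Fas ligand homolog TNFSF6 (SR_contig_15788) averaged 572 ± 145 in heat and 659 ± 129 in control libraries (log2 fold change -0.22 ± 0.11), and it passed the threshold only in the 12 libraries, at adjusted p = 0.0481. TNFSF13, TNFSF14 and the unnumbered family member had values of -0.36, 0.26 and -0.21, none past the threshold. Contigs sharing a name may be pieces of 1 gene or close copies that share reads, so their separate values are uncertain to that extent.

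TNF receptors, the proteins that bind these ligands, gave 1 rise among 5 contigs. TNFRSF11B (SR_contig_22587), named for osteoprotegerin, a secreted decoy receptor in mammals, had 1597 and 1765 at Aliso Beach, 3089.6 and 1522 at La Jolla, 1990.2 and 2031 at Slide Ranch, and 3449.8 and 1708 at Pigeon Point in heat libraries, against 667 and 855 at Aliso Beach, 1005 and 913 at La Jolla, 984 and 1147 at Slide Ranch, and 854 and 751 at Pigeon Point in control libraries. Each heat library exceeded each control library, and the first heat libraries of La Jolla and Pigeon Point, both among those that stand apart, were the highest. The means were 2144 ± 723 in heat and 897 ± 151 in control libraries, log2 fold change 1.21 ± 0.18 (SE), adjusted p = 0.00182, and over the 12 libraries adjusted p = 0.000118. TNFRSF16-like contig SR_contig_8727_C3.1, named for the nerve growth factor receptor p75, averaged 182 ± 83.9 in heat and 98.8 ± 28.2 in control libraries, with adjusted p = 0.0926 over 16 libraries and 0.0155 over 12. TNFRSF1B (SR_contig_25170) had a log2 fold change of 0.02 over 16 and passed the threshold over 12, at 0.33. TNFRSF26 and a TNFRSF16 contig had 0.17 and -0.02.

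Inside the cell, none of the 7 TRAF-related and TNF-induced proteins and none of the death domain proteins changed. Values of the TRAF-related group ran from -0.24 for TRAFD1 to 0.22 for TNFAIP3 (SR_contig_4686), the ubiquitin-editing brake on NF-kappa-B signalling, which averaged 1081 ± 266 normalised reads in heat and 921 ± 186 in control libraries. The LITAF-like contig SR_contig_1844, named for an endosomal membrane protein, averaged 2165 ± 561 in heat and 2247 ± 299 in control libraries. Both contigs named death domain-containing 1-like had negative values, SR_contig_468 at -0.29 ± 0.13 and SR_contig_33478 at -0.27 ± 0.15, and so had the ankyrin and death domain 1a-like contig SR_contig_94955, at -0.15 ± 0.18; none of these passed the threshold in either set of libraries.

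Initiator caspases gave 1 rise among 8 contigs. The caspase-8 isoform x5 contig SR_contig_77241 had 78.6 to 158 (median 111) in heat libraries and 44.5 to 101 (median 68.9) in control libraries. These ranges overlapped, while both heat libraries exceeded both control libraries at Aliso Beach, La Jolla and Pigeon Point, and the log2 fold change was 0.67 ± 0.16 (SE) with adjusted p = 0.0416. With 1 library left out at a time, that call held only without Slide Ranch heat 1, Pigeon Point heat 2 or La Jolla heat 2; leaving out any of the other 13 gave adjusted p between 0.0515 and 0.123, and the 12 libraries gave 0.0659. The other 6 caspase 8 contigs had log2 fold changes from -1.08 to 0.09, none past the threshold. The lowest was SR_contig_2439_C3.1, with 3.67 to 101 in heat and 54.4 to 101 in control libraries, at -1.08 ± 0.53 over 16 libraries and -0.25 over 12. Caspase 9 (SR_contig_6692), the initiator of the mitochondrial route, had 636 to 1461 (median 881) in heat and 689 to 1498 (median 992) in control libraries, a log2 fold change of -0.11 ± 0.10. Its values fell into site groups, a pattern picked out after the values were seen and not tested: the 8 libraries of La Jolla and Pigeon Point held 980.4 to 1498 normalised reads, heated and control alike, and the 8 of Aliso Beach and Slide Ranch 636 to 869.5.

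Effector caspases, which carry out the cutting of cell proteins, fell in 2 of 8 contigs and rose in none. The caspase-3 contig SR_contig_94844 had 42.3 and 54.6 at Aliso Beach, 6.15 and 31.9 at La Jolla, 54.0 and 37.0 at Slide Ranch, and 33.1 and 34.3 at Pigeon Point in heat libraries, against 81.6 and 86.7 at Aliso Beach, 118 and 119 at La Jolla, 113 and 132 at Slide Ranch, and 94.4 and 134 at Pigeon Point in control libraries. No heat library reached the lowest control, and La Jolla heat 1 was far below the rest. The means were 36.7 ± 15.3 in heat and 109.8 ± 20.0 in control libraries, log2 fold change -1.72 ± 0.28 (SE), adjusted p = 0.00368. The caspase-3-like protein 1 contig SR_contig_44392 had 9.83 to 23.0 (median 14.3) in heat and 25.9 to 76.0 (median 42.9) in control libraries, also without overlap, log2 fold change -1.56 ± 0.20 (SE), adjusted p = 0.000634. Caspase 3 contig SR_contig_206_C3.2 averaged 1114 ± 155 in heat and 1084 ± 94.9 in control libraries, a log2 fold change of 0.03 ± 0.10 with adjusted p = 0.896. A second caspase-3-like protein 1 contig (SR_contig_18021) and another caspase-3 contig (SR_contig_106821) had 0.12 ± 0.20 and -0.02 ± 0.22. The 2 caspase 7 contigs had -0.78 ± 0.49 and -0.63 ± 0.25, and neither passed the threshold. A caspase 3-like contig, SR_contig_51212, was spread widely, at 137 to 1242 (median 470.0) in heat and 267 to 628 (median 374) in control libraries.

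The 6 caspases whose names give no place in the cascade held no call. The largest value among them was that of the caspase-like contig SR_contig_7806, at 1.26 ± 0.57 with adjusted p = 0.267; it had 36.9 to 279 (median 206) in heat and 1.10 to 209.7 (median 99.0) in control libraries, and without La Jolla control 1, its lowest library, the log2 fold change was 0.68. Of the 3 BCL2 family contigs among the 95, which act at the mitochondrial membrane, none changed. Among the 6 set aside, the contigs named as apoptosis regulators rose. Their log2 fold changes were 1.90 for BAX-like SR_contig_15738 and 3.02 for r1-like SR_contig_13490. BAK-like SR_contig_14659, a pore former, averaged 128 ± 44.6 in heat and 146 ± 42.5 in control libraries, BOK-like SR_contig_11475_C3.1 69.7 ± 13.7 in heat and 74.5 ± 43.4 in control, and BCL2-like 13 (SR_contig_71710) 58.5 ± 11.2 in heat and 55.7 ± 7.42 in control. In that order, the log2 fold changes of these 3 were -0.24 ± 0.26, 0.04 ± 0.25 and 0.05 ± 0.17.

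Inhibitors of apoptosis held the largest rises and 5 of the 14 calls: of 16 contigs, 3 rose and 2 fell. BIRC2 contig SR_contig_3493_C3.1, named for a ubiquitin ligase that binds TRAF proteins in mammals, had 582 and 518 at Aliso Beach, 529 and 473 at La Jolla, 949 and 927 at Slide Ranch, and 1069 and 624 at Pigeon Point in heat libraries, against 49.7 and 74.1 at Aliso Beach, 59.3 and 54.4 at La Jolla, 47.0 and 54.6 at Slide Ranch, and 77.0 and 41.0 at Pigeon Point in control libraries. The lowest heat library was several-fold above the highest control. The means were 709 ± 234 in heat and 57.1 ± 12.6 in control libraries, log2 fold change 3.57 ± 0.17 (SE), adjusted p = 1.24e-07. The contig named inhibitor of apoptosis protein 1, SR_contig_19211, had 987 and 958 at Aliso Beach, 2596 and 1259.8 at La Jolla, 2605 and 3098 at Slide Ranch, and 4969 and 2015 at Pigeon Point in heat libraries, against 108 and 135 at Aliso Beach, 286 and 201 at La Jolla, 182 and 207 at Slide Ranch, and 372 and 188 at Pigeon Point in control libraries. Here too heat and control did not overlap, and Pigeon Point 1 was the highest library of both treatments. The means were 2311 ± 1343 in heat and 209.7 ± 84.0 in control libraries, log2 fold change 3.34 ± 0.23 (SE), adjusted p = 3.1e-06.

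BIRC7-B (SR_contig_1235_C3.2), named for the caspase-binding inhibitor livin, rose most on the log2 scale but unevenly. It had 1384 and 1152 at Aliso Beach, 15214 and 1386 at La Jolla, 2242 and 2790.5 at Slide Ranch, and 9706 and 1473 at Pigeon Point in heat libraries, against 95.7 and 139 at Aliso Beach, 222 and 62.1 at La Jolla, 98.3 and 100.4 at Slide Ranch, and 199 and 91.5 at Pigeon Point in control libraries. All heat libraries lay above all controls, and the first heat libraries of La Jolla and Pigeon Point carried most of the spread. The means were 4418 ± 5205 in heat and 126 ± 56.4 in control libraries, log2 fold change 4.54 ± 0.53 (SE), adjusted p = 0.000258. In the 12 libraries the heat mean was 1738 against a control mean of 97.8, and the log2 fold change was 4.13.

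The IAPs that fell did so by less. The inhibitor of apoptosis contig SR_contig_27290 had 10.3 to 77.1 (median 32.7) in heat and 60.4 to 147 (median 94.6) in control libraries, so the ranges overlapped, log2 fold change -1.54 ± 0.32 (SE), adjusted p = 0.0169. Leaving out Slide Ranch control 2 or Aliso Beach control 1 gave adjusted p = 0.0583 and 0.0555. The BIRC2 contig SR_contig_4756 had 385 to 696 (median 509) in heat and 542 to 837 (median 738) in control libraries, log2 fold change -0.51 ± 0.12 (SE), adjusted p = 0.0355; with 1 library left out at a time, its call held only without Pigeon Point heat 1, Pigeon Point heat 2 or La Jolla heat 2, and the other 13 libraries left out in turn gave 0.0509 to 0.111. Of the 3 contigs named BIRC2, then, 1 rose, 1 fell, and the third (SR_contig_18176) had -0.57 ± 0.27 over 16 libraries and passed the threshold only in the 12, at -0.62. Survivin homolog BIRC5 (SR_contig_31746), a cell division protein, had 0.31 ± 0.21. The remaining 9 IAP contigs ran from -0.45 to 0.66, none past the threshold in either set.

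**Figure D2:**
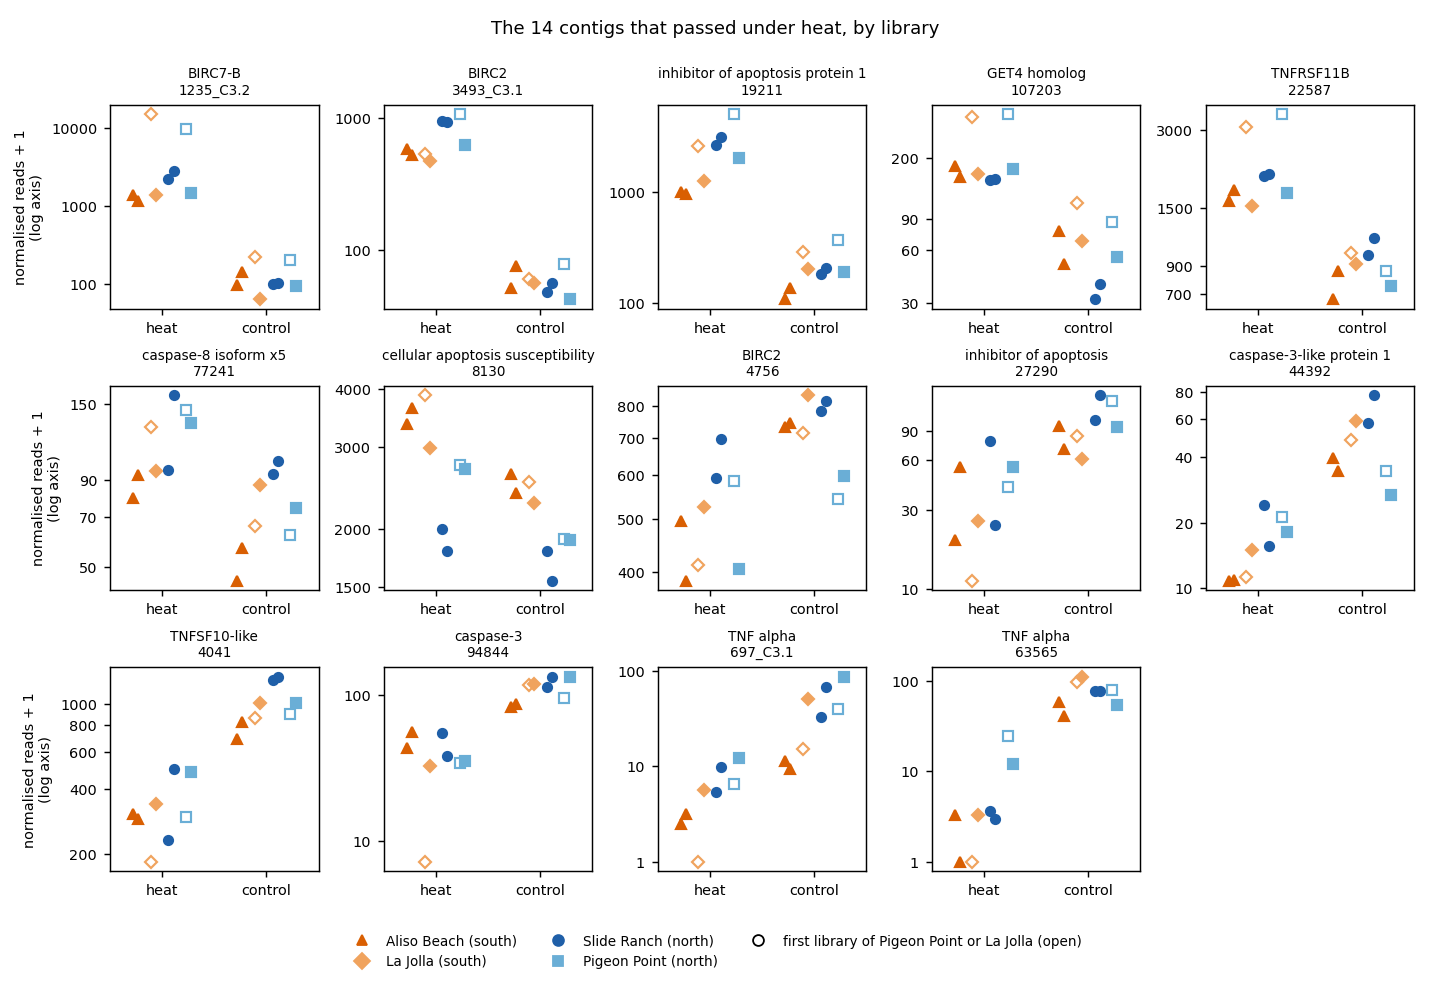
Normalised reads plus 1 (log axis) in every heat and control library for the contigs that changed under heat, 1 panel each; marker shape and colour give the site, open markers library 1 of each treatment at Pigeon Point and La Jolla. BIRC2 SR_contig_3493_C3.1 spans 473 to 1069 under heat, above all controls, and TNF alpha SR_contig_63565 reaches 23.9 at most under heat, below all controls.

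The other proteins named for apoptosis gave 1 rise among 14. The cellular apoptosis susceptibility contig SR_contig_8130, named for a nuclear export factor that recycles importin alpha, had 1784 to 3869 (median 2861) in heat and 1544 to 2622 (median 2082) in control libraries, a small change in overlapping ranges, log2 fold change 0.42 ± 0.094 (SE), adjusted p = 0.0273. Leaving out Pigeon Point control 1, Pigeon Point heat 2 or any La Jolla library but control 2 kept the call, and the other 11 libraries left out in turn gave 0.0506 to 0.0933. Mitochondrial apoptosis-inducing factor (SR_contig_284), a flavoprotein of the intermembrane space of mitochondria, averaged 5196 ± 1005 in heat and 4238 ± 1064 in control libraries, a log2 fold change of 0.31 ± 0.15 that passed the threshold only in the 12 libraries. The mitochondrial apoptogenic protein SR_contig_88729 had 180 to 465 in heat and 154 to 377 in control libraries. Its log2 fold change over the 12 libraries was 0.41. Apoptosis inhibitor protein 5 (SR_contig_878_C3.1) averaged 19692 ± 3742 in heat and 16503 ± 3072 in control libraries (0.26 ± 0.11). ASPP2-like SR_contig_22144, a p53-binding protein, averaged 2017 ± 179 in heat and 1870.4 ± 149 in control libraries (0.11 ± 0.09). The 3 programmed cell death proteins had values from -0.19 for PDCD4, an inhibitor of translation, to 0.15 for PDCD2. The contig named only as involved in programmed cell death (SR_contig_12970) averaged 6961 ± 2097 in heat and 6239.8 ± 956 in control libraries, with its highest values of both treatments in first libraries of La Jolla and Pigeon Point.

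Of the 12 contigs matched by letters alone, GET4 homolog SR_contig_107203, which helps insert tail-anchored membrane proteins, was the only one to rise and none fell. It had 179.9 and 154 at Aliso Beach, 340.3 and 160.3 at La Jolla, 149 and 151 at Slide Ranch, and 355 and 171 at Pigeon Point in heat libraries, against 76.4 and 48.8 at Aliso Beach, 109.8 and 66.3 at La Jolla, 30.5 and 37.7 at Slide Ranch, and 85.7 and 53.9 at Pigeon Point in control libraries. Every heat library lay above every control, log2 fold change 1.71 ± 0.23 (SE), adjusted p = 0.001. The 9 intraflagellar transport contigs, parts of the machinery that builds cilia, had values from -0.61 for IFT80 to 0.37 for IFT57, and only IFT80 passed the threshold in the 12 libraries, at adjusted p = 0.0346. IFT20 (SR_contig_29052) held 1622 to 3526 normalised reads in the 4 libraries that stand apart and 294 to 729.6 in the others, heated and control alike.

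Heat was also compared within each region. In the south 8 of 95 changed, 4 higher and 4 lower (8.42%), while 1.73% of all contigs did; in the north 7 changed, 5 higher and 2 lower (7.37%), while 1.87% did. Both regions called BIRC2 SR_contig_3493_C3.1, SR_contig_19211, BIRC7-B and TNFRSF11B higher and TNF alpha SR_contig_63565 and TNFSF10-like SR_contig_4041 lower. Over 16 libraries both effector caspase contigs passed in the south, SR_contig_44392 at -1.90 ± 0.28 and SR_contig_94844 at -1.88 ± 0.40, where the north had -1.21 ± 0.28 and -1.57 ± 0.40. Both passed in both regions in the 12 libraries, SR_contig_44392 at -1.87 in the south and -1.18 in the north, and SR_contig_94844 at -1.33 in the south and -1.68 in the north. Over 16 libraries GET4 passed in the north, at 1.98 ± 0.33, with 1.44 ± 0.33 in the south, and in the 12 libraries it passed in both, at 1.35 in the south and 1.88 in the north. None of these 3 contigs passed the test of the difference between regions. In the 12 libraries, 12 of 95 (12.6%) changed in the south, against 5.01% of all contigs, and 12 (12.6%) in the north, against 9.24%, a share near the background. edgeR called 9 in the south (1.8% of all contigs) and 9 in the north (1.85%), and DESeq2 13 in the south (3.52%) and 10 in the north (4.01%). The southern count rose when La Jolla heat 2 was left out and fell when either control of Aliso Beach was.

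The difference in the heat effect between the regions was tested itself, and none of the 95 passed in limma, with 4 at an unadjusted p under 0.05, nor in edgeR or DESeq2; limma called 0% of all contigs, and 1.36% had an unadjusted p under 0.05. In the 12 libraries no member passed, against 0.0138% of all contigs. The largest of the 4 was TNF alpha SR_contig_63565, with a log2 fold change of -5.30 ± 0.50 in the south and -3.26 ± 0.50 in the north, a difference of -2.04 ± 0.71 (unadjusted p = 0.0144, adjusted p = 1). Both heat libraries at 0 were southern, so this difference too depends on the pseudocount. BIRC2 SR_contig_3493_C3.1 had 3.14 ± 0.25 in the south and 4.01 ± 0.25 in the north, a difference of -0.87 ± 0.35 (unadjusted p = 0.0279). Caspase 8 contig SR_contig_52957 and the caspase contig SR_contig_15943_C3.1 had differences of -1.23 ± 0.47 and -1.26 ± 0.45. By site, BIRC2 SR_contig_3493_C3.1 had 3.16 at Aliso Beach, 3.12 at La Jolla, 4.18 at Slide Ranch and 3.84 at Pigeon Point.

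**Figure D3:**
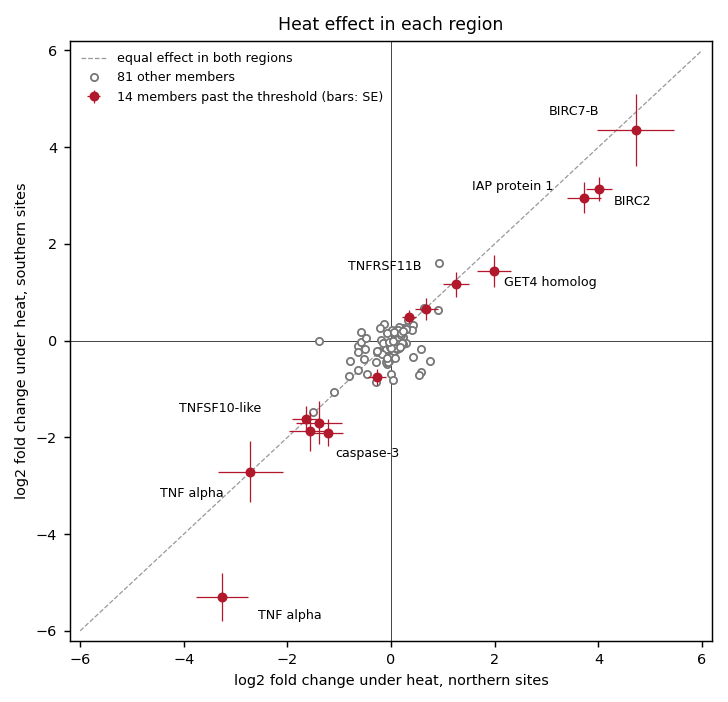
Log2 fold change under heat in the southern sites (y axis) against the northern sites (x axis) for the 95 contigs; filled points are the 14 past the threshold over 4 sites, with SE bars, and the dashed line marks equal effects. BIRC2 SR_contig_3493_C3.1 lies at 3.14 in the south and 4.01 in the north, and TNF alpha SR_contig_63565 at -5.30 in the south and -3.26 in the north.

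Southern and northern animals were compared within each treatment. Each region was 2 sites, and the spread came from libraries of the same site and treatment. Differences between the sites of a region therefore do not enter these p-values, nor those for the regional difference in heat effect above. In the 12 libraries the comparison of regions holds no replicate pair from Pigeon Point or La Jolla, so its p-values carry no replicate spread from those sites. Among heated animals, none of the 95 passed in limma, with 26 at an unadjusted p under 0.05, while 1.16% of all contigs passed and 14.2% had such an unadjusted p; edgeR called 1 member (1.1% of all contigs) and DESeq2 11 (5.43%). In the 12 libraries 16 of 95 passed (16.8%), 5 higher and 11 lower in the south, against 9.37% of all contigs. Without La Jolla heat 2 or Pigeon Point heat 2 limma called some members, which were not set against a share of all contigs. Among control animals none passed either, with 14 at an unadjusted p under 0.05, while 0.263% of all contigs passed and 9.25% had such an unadjusted p; edgeR called 0 (0.256% of all contigs) and DESeq2 1 (2.33%). In the 12 libraries 2 members passed (4.17% of all contigs), BIRC5 and mitochondrial apoptosis-inducing factor, both higher in the south, and without La Jolla control 2 limma called 1.

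The 16 are named here because the 12 libraries called them. Among IAPs, SR_contig_19211 had 958 to 2596 in southern heat libraries and 2015 to 4969 in northern heat libraries, which overlapped, and its log2 difference was -1.18 ± 0.33 over 16 libraries (adjusted p = 0.115) and -1.11 over 12. The inhibitor of apoptosis contig SR_contig_4758_C3.1 had 36.1 to 43.8 in southern and 72.1 to 91.8 in northern heat libraries, without overlap. BIRC5 went the other way, with 425 to 892 in southern and 191 to 643 in northern heat libraries, and 346 to 672 in southern and 182 to 311 in northern control libraries. Northern values were higher for BIRC2 SR_contig_18176 and inhibitor of apoptosis 2 SR_contig_38919 too, with log2 differences of -1.14 and -0.62 over 12 libraries.

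Among caspases, 3 of those with no place in the cascade were lower in heated southern animals over the 12 libraries. Caspase-1-like SR_contig_53203 had 19.5 to 36.1 in southern and 41.9 to 87.7 in northern heat libraries, SR_contig_15943_C3.1 36.3 to 67.7 in southern and 97.4 to 298 in northern ones, and SR_contig_9220 119 to 174 in southern and 195 to 317 in northern ones. The regions did not overlap for any of these 3. Of the 95 members, 14 (14.7%) had southern and northern heat libraries that did not overlap, against 7.41% of all contigs. Over 16 libraries their adjusted p were 0.0849, 0.056 and 0.0764. Of the TNF system, TNFSF6, TNFRSF16-like SR_contig_8727_C3.1, TNFAIP3 and the LITAF-like contig were lower in the south, and TRAF-interacting protein (SR_contig_86058) was higher, with 139 to 288 in southern and 60.6 to 134 in northern heat libraries. Cellular apoptosis susceptibility SR_contig_8130 had 2978 to 3869 in southern and 1784 to 2744 in northern heat libraries, without overlap; over 16 libraries its difference was 0.60 ± 0.13 with adjusted p = 0.0591. The mitochondrial apoptogenic protein SR_contig_88729 was higher in the south, and IFT20 as well. Over 16 libraries, the regional differences among control animals had the same sign as those among heated animals for all 16 contigs. Examples were 0.90 for BIRC5 and 0.47 for SR_contig_8130. In the 12 libraries the control difference of SR_contig_15943_C3.1 went the other way, at 0.09.

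**Figure D4:**
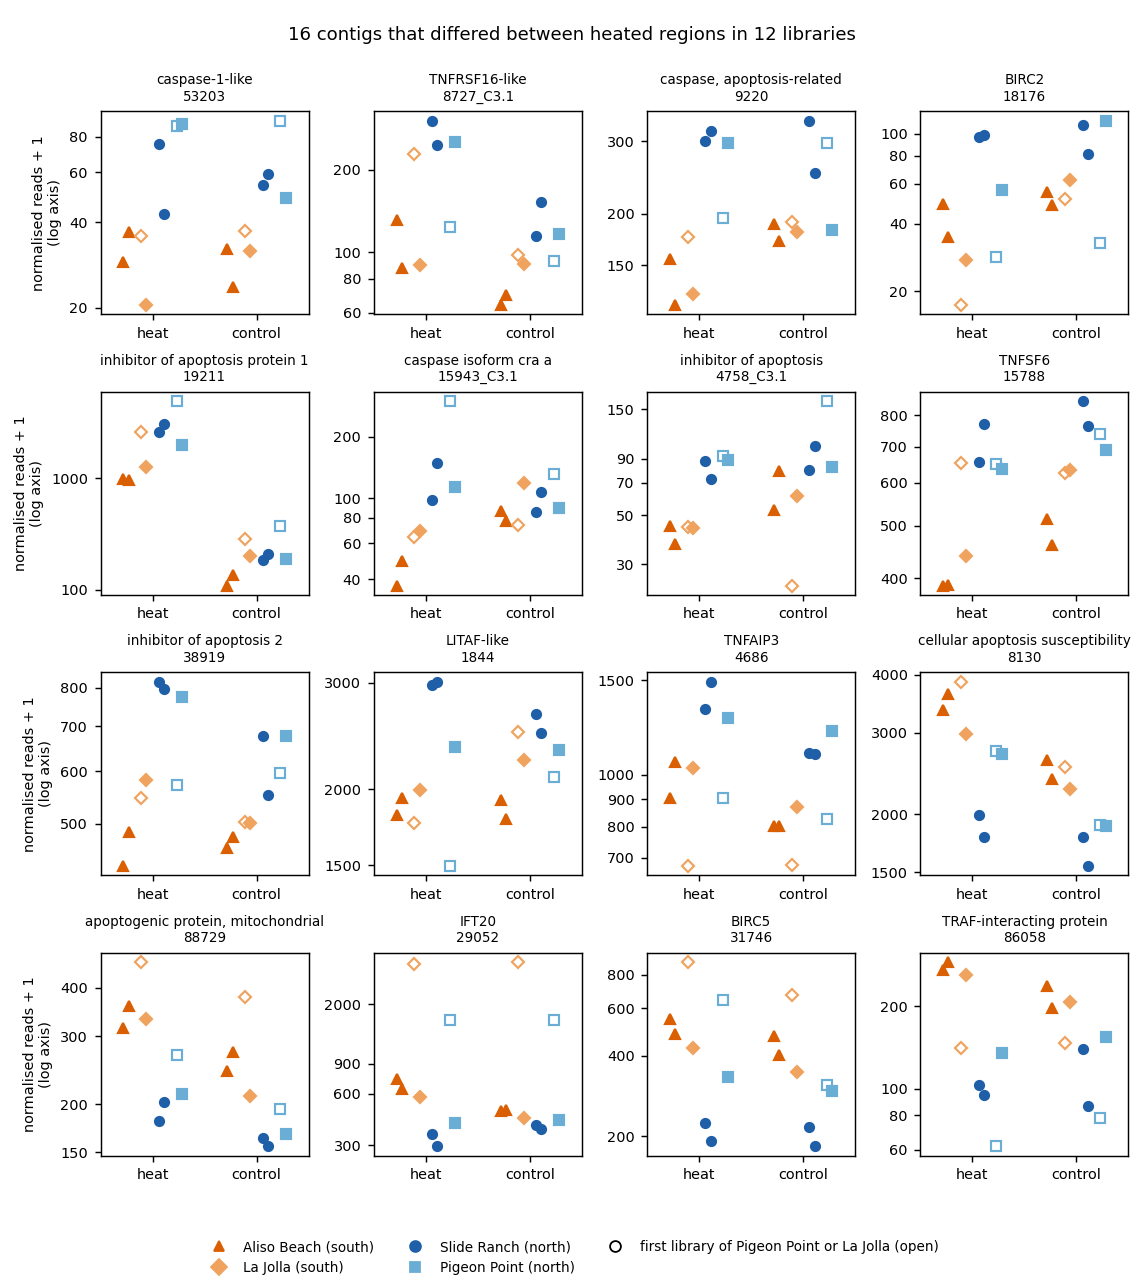
Normalised reads plus 1 (log axis) by library for contigs that differed between heated southern and heated northern animals in the 12 libraries, southern sites left of northern ones, heat left of control; open markers are library 1 of each treatment at Pigeon Point and La Jolla. SR_contig_8130 holds 2978 to 3869 in southern heat libraries and 1784 to 2744 in northern ones.

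Some markers of tissues changed as well, to be read against 4.24% of all contigs called over 16 libraries and 18.8% over 12. The lists hold only contigs that passed the filter, a mean of at least 10 normalised reads. The summed level of 26 ovary and egg contigs ran from 279526 to 679184 normalised reads in heat libraries and from 211728 to 463377 in control libraries. It ran from 336868 to 679184 in southern and from 211728 to 561805 in northern libraries. In this list 3 contigs rose under heat over 16 libraries and 24 over 12. Of 23 ribosomal protein contigs 1 fell over 16 libraries, and 15 rose and 1 fell over 12, and their summed level ran from 560227 to 1500090 in heat libraries and from 440469 to 1101410 in control libraries. Ribosomal protein sums were 1056020 to 1500090 in the 4 libraries that stand apart and 440469 to 689480 in the other 12. Ovary and egg sums were 305938 to 679184 in those 4 and 211728 to 615398 in the other 12. In the same order, digestive gland sums were 783342 to 1322030 and 559526 to 852345. Testis and sperm sums were 22945.4 to 29528.6 and 29095 to 41775.4. Muscle sums were 63495.8 to 110736 and 70296.4 to 126950. Haemocyte sums were 15044.1 to 36264.7 and 30289.9 to 60865.3. Of 33 digestive gland contigs 10 rose and 1 fell over 12 libraries, of 53 testis and sperm contigs 1 rose and 7 fell, of 16 muscle contigs 2 rose and 1 fell, and none of 3 haemocyte contigs passed. Over 16 libraries none of the digestive gland, testis and sperm, muscle or haemocyte contigs passed. The digestive gland list shares its cathepsin L contigs with the cathepsins counted below, so their rises over 12 libraries are partly the same. The part of the tissue lists in the changes of the death pathway contigs was not tested.

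Among 50 other contigs of the pathway, counted by name, 1 rose and none fell over 16 libraries, and 11 rose and 4 fell over 12, where 4.24% and 18.8% of all contigs were called. The one was a BAG3-like co-chaperone (SR_contig_31772), which joins HSP70 to its clients, at a log2 fold change of 7.24. None of 5 contigs named for RIP kinases, FADD or a fas-associated factor, 2 contigs with p53 or its relatives p63 and p73 in their names, 2 NF-kappa-B subunits, 8 poly(ADP-ribose) polymerases and 9 calpains passed over 16 libraries. Of 13 cathepsins, lysosomal proteases, none passed over 16, and 7 rose and 1 fell over 12. The 6 contigs set aside all passed under heat. They were set aside with earlier results of these data known, so this is no independent result, and the member counts leave them out. Of these 6, 4 rose, with log2 fold changes of 1.90 for the BAX-like contig and 3.02 for the r1-like apoptosis regulator SR_contig_13490. The others that rose were baculoviral repeat inhibitors, at 3.63 and 6.75. The 2 that fell were the fas ligand at -2.15 and an inhibitor of apoptosis at -2.51.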

How the data were processed

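RNA of whole snails was sequenced as paired reads of 100 bases, per the labels' protocols; CASAVA and DESeq are named, without versions, in the submitters' processing notes, and no source used here names the assembler or mapper. The authors deposited a signal unit, reads per contig divided by a size factor per library. In every column 100% of values were whole multiples of 1 read within 0.01 read, and the recovered reads were used for the count tests. Of the contigs, 6599 had no gene name.

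In R 4.3.3, limma 3.58.1 with its trend option fitted a mean for each of the 8 groups to log2(value + 1), with 16 libraries sharing 1 spread and Benjamini-Hochberg adjustment over 14444 contigs with a mean of at least 10; the scale understates changes of low contigs. Alternatives were edgeR 4.0.16 (quasi-likelihood) and DESeq2 1.42.0 on recovered reads, which called 14 and 16 members under heat, TMM scaling, pseudocounts of 0.5 and 5, other filters, fits to the compared libraries alone, robust shrinkage, a replicate block, and leaving out each library, each site or the 4 libraries that stand apart; a term for those 4 was added after the data were seen. The steps were tested on simulated reads.

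The members and lists were chosen with earlier results of these data known. Roles were assigned from contig names, and 1 member is not reported here by itself. Named with values were up to 14 members by smallest p under heat and up to 4 for each other contrast, the 2 most abundant of each role, and up to 4 uncalled members with the largest change among those with a mean of at least 50; others are marked or were named after their values were seen, among them those called only in the 12 libraries and those that share a name with a called contig. Figures were drawn with matplotlib 3.10.9.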

Additional observations from a re-analysis of the deposited data

Results flagged for a closer look

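Of 74 sets of 8 libraries checked, the heat and the control libraries of 37 named contigs, 3 held a library far from the others, all 3 among the 4 libraries that stand apart; chance flags about 1 in 20 sets. Caspase-3 SR_contig_94844 had 6.15 normalised reads in La Jolla heat 1, with the nearest heat library at 31.9. Caspase 8 SR_contig_32224 had 524 in Pigeon Point heat 1, with the nearest at 364.9. TNF alpha SR_contig_63565 had 23.9 in Pigeon Point heat 1, with the nearest at 11.1.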

How the results depend on the processing

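Of the 14 contigs called under heat, 10 were called under every alternative that could be fitted to them. Over 4 sites the count was 14, and it was 23 with the replicate block (24.2%, against 21.4% of all contigs) and 24 with a term for the 4 libraries that stand apart (25.3%, against 24.4%). Left-out libraries gave 10 to 17 calls over 4 sites, 5 to 14 in the south, 6 to 9 in the north, 0 to 0 for the difference in heat effect, 0 to 5 between heated animals and 0 to 1 between controls. In the south the count of 8 became 13 with DESeq2 (13.7%, against 3.52% of all contigs) and 13 with the term for the 4 (13.7%, against 8.92%). It became 4 with only the libraries compared, and 3 without Aliso Beach or La Jolla. In the north the count of 7 became 11 with the replicate block, 12 without the 4 libraries, 13 with the term for them and 2 without Slide Ranch. Between heated animals the count of 0 became 1 with TMM scaling or edgeR, 3 with the replicate block, 4 without Pigeon Point, 11 with DESeq2, 16 without the 4 libraries and 25 with the term (26.3%, against 14% of all contigs). Between controls the count of 0 became 1 with DESeq2 (1.05%, against 2.33% of all contigs) and 7 with the term (7.37%, against 5.43%). The counts given without a share of all contigs, here and above, were not set against the background. Replicate numbers were not taken as pairs, since they did not go together at every site: deviations of same-numbered heat and control libraries correlated at -0.06, 0.69, 0.10 and 0.64 at Slide Ranch, Pigeon Point, Aliso Beach and La Jolla. TNF alpha SR_contig_63565 had -3.13 with a pseudocount of 5 and -5.06 without Pigeon Point, and SR_contig_697_C3.1 -1.94 with a pseudocount of 5. No value of a called contig changed sign under any alternative run. The causes were not tested. Low reads limit the TNF alpha and other low contigs most.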
